A study of Homo sapiens with 12 samples.

Results

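RNA was compared between SW-13 cells that carried an adenovirus encoding BRG1 and SW-13 cells that carried an adenovirus encoding GFP, both stimulated with IFNγ for 6 h. SW-13 is an established adrenal carcinoma cell line without BRG1, the ATPase subunit of the SWI/SNF chromatin remodeling complex that is encoded by SMARCA4. The members were the 3 Ad-BRG1+IFNγ arrays and the 3 Ad-GFP+IFNγ arrays named as such in the sample labels, 6 of the 12 arrays of the series, and every gene with a detected probe, 10333 of 18665 symbols on the array. The other 6 arrays were untreated Ad-BRG1 cells and untreated Ad-GFP cells, 3 each, and served to set the difference between viruses with IFNγ beside that without it. All 12 samples had received a virus, so no uninfected cells enter any comparison. According to the methods the BRG1 of the virus is a GFP fusion, its dose was titrated to the BRG1 protein of HeLa cells, and the arrays are biological replicates. The share of cells that took up the virus is not given in the sources used here. Values are log2 intensities after background correction and normalization, on which 1 unit is a 2-fold step, and a difference is Ad-BRG1+IFNγ minus Ad-GFP+IFNγ.

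SWI/SNF complexes use the energy of ATP to move or evict nucleosomes, which lets transcription factors reach promoters and enhancers. IFNγ binds its receptor on the cell surface, activates JAK kinases and, through STAT and IRF transcription factors, switches on interferon-stimulated genes (ISGs) that act against viruses and present antigens to T cells. These factors bind the GAS element and the interferon-stimulated response element (ISRE) near their target genes. BRG1 is also known as a coactivator of smooth muscle and heat shock genes and as a tumor suppressor. The comparison asks which genes BRG1 raises or lowers in cells that are exposed to the cytokine.

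Raw mean intensity was 539.9 to 571.1 on the Ad-BRG1+IFNγ arrays and 570.7 to 650.0 on the Ad-GFP+IFNγ arrays, and 15741 to 16623 probes were detected on the 6 arrays. Across genes, which are not independent replicates, arrays of the same treated group correlated at r 0.994 to 0.997 and arrays of different treated groups at 0.953 to 0.958. SMARCA4 itself was read by 1 probe, at 8.39, 8.75 and 8.72 in Ad-BRG1+IFNγ cells and 8.71, 8.61 and 8.62 in Ad-GFP+IFNγ cells, and the groups overlapped. Where this probe lies relative to the cDNA of the virus is not known here, so it does not check the virus labels. SMARCA2, which encodes the sister ATPase BRM, was on the array but did not pass the detection filter. Of the markers of cell types, 2 of 12 of adrenal cortex, 2 of 14 of leukocytes, 3 of 8 of endothelium, 2 of 8 of epithelium and 6 of 9 of fibroblasts passed the filter. The adrenal regulators NR5A1 and STAR did not pass, and the adrenal marker that differed was the electron carrier FDX1, at -0.65. In bulk RNA of this kind, fewer cells that express a gene and less RNA per cell cannot be told apart.

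BRG1-restored cells differed from control cells across much of the transcriptome. Of the 10333 genes, 2925 (28.3%) were higher in Ad-BRG1+IFNγ cells and 3386 (32.8%) were lower by limma at an adjusted p under 0.05. A difference of 2-fold or more was called for 574 genes that were higher (5.56%) and for 295 that were lower (2.85%). By the fitted difference the large changes were mostly increases, with 139 genes at least 4-fold higher and 10 at least 4-fold lower, and with 55 at least 8-fold higher and 1 at least 8-fold lower. The median over all genes was -0.03 on the log2 scale. The groups did not overlap on single arrays for 6746 genes (65.3%), and all 869 genes with a 2-fold difference were among these. For 126 of the 574 higher genes, no Ad-GFP+IFNγ array was above background. The folds of such genes are given as lower bounds against the lowest signal detected on each array, and 540 genes remained at least 2-fold higher on that scale.

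The genes that rose most included chaperones, smooth muscle actins and interferon targets. CRYAB, a small heat shock protein that keeps damaged proteins soluble, had 12.92, 12.82 and 12.71 in Ad-BRG1+IFNγ cells and 5.42, 5.45 and 5.53 in Ad-GFP+IFNγ cells, a log2 difference of 7.35 (SE 0.09, limma adjusted p = 2.77e-14) or 163-fold. HSPA6, an Hsp70 chaperone made after heat shock, had 12.80, 12.76 and 12.40 in Ad-BRG1+IFNγ cells and 5.05, 5.33 and 5.54 in Ad-GFP+IFNγ cells, a difference of 7.34 (SE 0.13, limma adjusted p = 1.93e-13). Both were bright with BRG1 and near background without it, and HSPA6 was detected on 1 of the 3 Ad-GFP+IFNγ arrays. IFIT3, an antiviral protein of the IFIT family, had 11.11, 11.33 and 11.35 in Ad-BRG1+IFNγ cells and 5.16, 5.19 and 5.08 in Ad-GFP+IFNγ cells and was at least 57.9-fold higher by the brightest of its 3 probes, which gave log2 differences of 3.84 to 6.12. IFI27, an interferon-induced protein, had 11.07, 11.04 and 11.23 in Ad-BRG1+IFNγ cells and 5.08, 5.18 and 5.22 in Ad-GFP+IFNγ cells and was at least 52.1-fold higher. ACTG2, an actin of smooth muscle, had 10.70, 10.98 and 10.91 in Ad-BRG1+IFNγ cells and 4.84, 5.13 and 4.97 in Ad-GFP+IFNγ cells and was at least 43.8-fold higher. These 3 genes were detected on every array with BRG1 and on none of the Ad-GFP+IFNγ arrays. ACTA2, the other smooth muscle actin, was at least 23.9-fold higher, and its transcript resembles that of ACTG2 closely enough that probes may share signal. The leading genes also held UBD, a ubiquitin-like modifier (at least 33.5-fold higher), GBP1, a GTPase that acts against intracellular pathogens (at least 36.7-fold), PLAAT4, a phospholipase (47.9-fold), and IL18BP, a soluble protein that captures IL-18 (40.0-fold). The IL18BP value is that of the brighter of 2 probes, with log2 differences of 0.95 to 5.32, and averaging them gave 3.14. The monocyte chemoattractant CCL2 was at least 22.7-fold, the virus entry inhibitor IFITM1 31.5-fold and GBP2 at least 21.3-fold higher. LY96, the partner of the endotoxin receptor TLR4, rose 28.8-fold, and GPNMB, a glycoprotein of lysosomes and melanosomes, was at least 23.7-fold higher. Without background correction the differences of these 15 genes were smaller, between 2.93 and 5.56 under quantile normalization where the corrected values lay between 4.78 and 7.35.

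**Figure D1:**
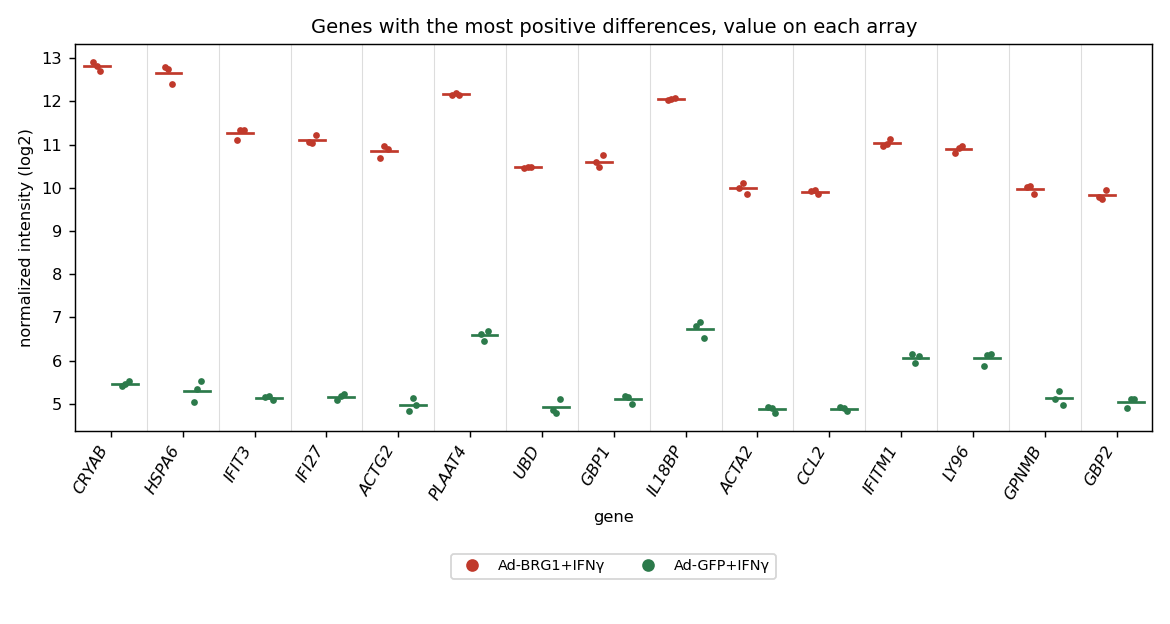
Normalized intensity (log2, y axis) of the 15 genes with the most positive differences (x axis) on each of the 3 Ad-BRG1+IFNγ arrays (red) and the 3 Ad-GFP+IFNγ arrays (green), with horizontal lines at the group means. The Ad-BRG1+IFNγ points lie between 9.74 and 12.92 and the Ad-GFP+IFNγ points between 4.79 and 6.89, so the groups overlap for none of these 15 genes.

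The genes that fell most had smaller differences, and several are known from neurons, Notch signaling or biosynthesis. SYP, which encodes the synaptic vesicle protein synaptophysin, had 6.02, 5.81 and 5.55 in Ad-BRG1+IFNγ cells and 9.09, 8.97 and 9.05 in Ad-GFP+IFNγ cells, a log2 difference of -3.25 (SE 0.14, limma adjusted p = 1.19e-09). RPRML had 5.70, 5.73 and 5.83 in Ad-BRG1+IFNγ cells and 8.18, 8.19 and 8.03 in Ad-GFP+IFNγ cells, a difference of -2.38. DPH2, needed for the diphthamide of elongation factor 2, had 7.26, 7.32 and 7.19 in Ad-BRG1+IFNγ cells and 9.67, 9.55 and 9.58 in Ad-GFP+IFNγ cells, a difference of -2.34 by the brighter of 2 probes. Its other probe differed by -0.15, and averaging both gave -1.25. All 3 were detected on every array of both groups, so these values are no bounds. DLL3, an inhibitory Notch ligand, and HES7, a Notch target of the segmentation clock, were lower at -2.17 and -2.16. SRM, the enzyme that makes spermidine, was lower at high intensity, with 10.20, 9.94 and 10.12 in Ad-BRG1+IFNγ cells and 12.20, 12.27 and 12.27 in Ad-GFP+IFNγ cells. MAPT, the gene of the microtubule protein tau, had a difference of -2.02, and CHRNB1, a subunit of the muscle acetylcholine receptor, one of -2.24. The remaining leading genes were PLCXD1 (-2.28), QTGAL (-2.04), the ubiquitin ligase TRIM7 (-1.94) and RFESD (-1.94). The groups overlapped for none of the 12 genes, and their limma adjusted p were at most 1.31e-07. Under average normalization without background correction the 12 differences lay between -2.08 and -0.88, each still called.

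**Figure D2:**
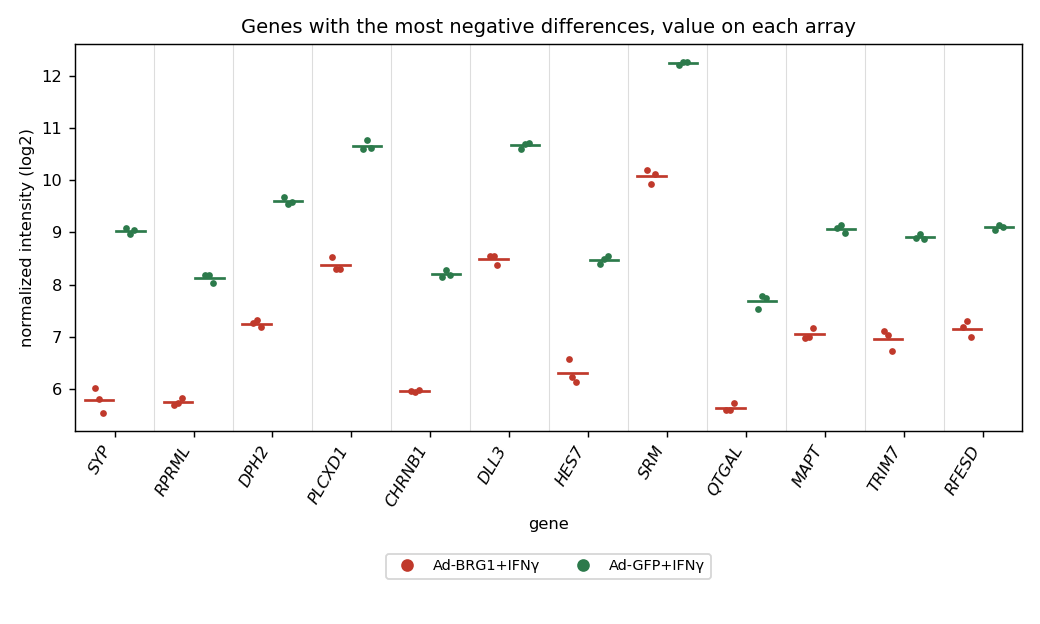
Normalized intensity (log2, y axis) of the 12 genes with the most negative differences (x axis) on each Ad-BRG1+IFNγ array (red) and each Ad-GFP+IFNγ array (green), with horizontal lines at the group means. Every Ad-GFP+IFNγ point lies above every Ad-BRG1+IFNγ point of the same gene, and SYP shows the widest gap, -3.25.

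The sequences below are promoter windows of 5 genes, shown because these genes lead the antiviral, guanylate-binding, MHC class I, heat shock and contractile lists among members with an entry in the RefSeq table (build GRCh38.p14, 250 bases before to 50 bases after a transcript start, 5′ to 3′). CRYAB has no entry. Capitals mark matches on either strand to GAAANNGAA (the core of the ISRE), TTCNNNGAA (the GAS element), TGANTCA (the AP-1 site), GAANNTTC (the core of the heat shock element) and the CArG box, which binds serum response factor in contractile genes. For IFIT3 and PSMB8, which have 2 starts each in the table, the window with more matches is shown.
IFIT3 (chr10:89332279-89332578, plus strand): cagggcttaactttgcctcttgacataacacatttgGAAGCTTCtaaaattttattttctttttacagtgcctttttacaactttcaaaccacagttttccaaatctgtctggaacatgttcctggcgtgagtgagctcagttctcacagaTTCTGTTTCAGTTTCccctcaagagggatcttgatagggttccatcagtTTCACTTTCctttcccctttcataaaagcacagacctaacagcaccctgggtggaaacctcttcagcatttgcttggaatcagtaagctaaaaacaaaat
GBP1 (chr1:89065159-89065458, minus strand): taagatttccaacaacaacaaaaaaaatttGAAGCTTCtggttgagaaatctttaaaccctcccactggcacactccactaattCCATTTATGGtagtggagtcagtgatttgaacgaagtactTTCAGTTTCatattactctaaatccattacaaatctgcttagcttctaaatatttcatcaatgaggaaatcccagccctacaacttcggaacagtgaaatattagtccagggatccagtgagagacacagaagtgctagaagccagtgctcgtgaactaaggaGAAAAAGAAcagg
PSMB8 (chr6:32843998-32844297, minus strand): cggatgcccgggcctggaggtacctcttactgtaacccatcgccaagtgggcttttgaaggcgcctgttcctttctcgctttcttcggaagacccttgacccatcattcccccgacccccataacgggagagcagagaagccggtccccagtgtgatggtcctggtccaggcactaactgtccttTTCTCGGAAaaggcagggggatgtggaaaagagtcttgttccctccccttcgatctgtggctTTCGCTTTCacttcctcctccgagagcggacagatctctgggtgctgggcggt
HSPA6 (chr1:161524290-161524589, plus strand): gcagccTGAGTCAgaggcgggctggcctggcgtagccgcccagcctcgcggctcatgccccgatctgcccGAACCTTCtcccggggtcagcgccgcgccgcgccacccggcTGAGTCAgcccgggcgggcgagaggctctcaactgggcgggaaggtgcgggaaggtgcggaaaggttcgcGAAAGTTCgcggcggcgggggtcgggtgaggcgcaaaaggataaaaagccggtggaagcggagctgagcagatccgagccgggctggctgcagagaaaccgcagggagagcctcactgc
ACTG2 (chr2:73892758-73893057, plus strand): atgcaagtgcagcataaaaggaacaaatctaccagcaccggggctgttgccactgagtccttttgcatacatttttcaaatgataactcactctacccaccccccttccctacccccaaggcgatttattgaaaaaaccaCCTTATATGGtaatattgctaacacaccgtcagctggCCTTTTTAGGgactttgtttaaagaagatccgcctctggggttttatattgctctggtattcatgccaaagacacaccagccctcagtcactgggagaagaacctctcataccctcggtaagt

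The IFIT3 window held 3 ISRE cores, 2 of which overlap, and 1 heat shock core, and the window of its other start held 2 ISRE cores. The GBP1 window held 2 ISRE cores, 1 heat shock core and 1 CArG box. That of PSMB8, a catalytic subunit of the immunoproteasome, held 1 ISRE core and 1 GAS element. The HSPA6 window held 2 heat shock cores and 2 AP-1 sites, and the ACTG2 window 2 CArG boxes. Of the 10333 genes tested, 8506 had a window in the table and 6053 had exactly 1, which were used for the shares that follow. The ISRE core was found in 12.1% of the 289 genes with a 2-fold higher level, in 3.85% of the 156 with a 2-fold lower level and in 6.39% of all 6053. The AP-1 site was found in 10.03%, 5.13% and 3.998% of these sets, the GAS element in 8.997%, 5.13% and 6.58%, the heat shock core in 6.92%, 4.49% and 4.71%, and the CArG box in 1.04%, 0% and 0.876%. Over all 35116 windows of the table, the shares were 8.11% for the ISRE core, 7.66% for the GAS element, 7.71% for the AP-1 site, 6.77% for the heat shock core and 1.29% for the CArG box. A heat shock core can overlap a GAS element or an ISRE core, and a match describes letters, not a bound site. No test was made on these shares.

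Most heat shock genes were higher with BRG1. Of 37 chaperone genes tested, 22 were higher and 7 lower, against 28.3% and 32.8% of all genes, and the list median was 0.32 where that of all genes was -0.03. Beside CRYAB and HSPA6, the small heat shock protein HSPB3 was at least 5.13-fold higher, and HSPA1B, an inducible Hsp70, rose by 2.04, with 13.79, 13.96 and 13.75 in Ad-BRG1+IFNγ cells and 11.79, 11.82 and 11.75 in Ad-GFP+IFNγ cells. HSPA1A rose by 2.04 as well, but these gene copies are nearly identical and their probes may read both. The Hsp70 cochaperones DNAJB1 and BAG3 rose by 1.75 and 1.56. The members that fell included HSPA1L (-1.09) and CCT4, CCT5 and TCP1, subunits of the cytosolic chaperonin (-0.59, -0.41 and -0.40).

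Contractile genes had the highest share of higher members among the lists with more than 10 tested members, 28 of 34 (82.4%), with 2 lower and a median of 0.97. Among the 34, 5 were detected on every Ad-BRG1+IFNγ array and on no Ad-GFP+IFNγ array. TAGLN, the smooth muscle protein transgelin, had 14.57, 14.63 and 14.66 in Ad-BRG1+IFNγ cells and 10.82, 10.81 and 10.80 in Ad-GFP+IFNγ cells, a difference of 3.81 (SE 0.06, limma adjusted p = 7.5e-14), where its 3 probes ranged over 0.87 to 3.81. The LIM protein PDLIM1 was at least 6.23-fold higher, the tropomyosin TPM1 rose by 2.21 and the calponin CNN1 was at least 2.39-fold higher. TAGLN was thus far above background in both groups, whereas PDLIM1 and CNN1 were undetected in Ad-GFP+IFNγ cells. The myosin light chain MYL12A and the calponin CNN2 were the members that fell, at -0.58 and -0.20.

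Genes of the matrix and of cell attachment were also mostly higher. Of 24 matrix genes 15 were higher and 3 lower, led by the collagen gene COL1A1 (at least 7.14-fold), the laminin gene LAMB1 (at least 5.51-fold), the microfibril gene MFAP5 (2.69 on the log2 scale) and the thrombospondin gene THBS1 (at least 3.04-fold). Among the 24, 5 were detected on every Ad-BRG1+IFNγ array and on no Ad-GFP+IFNγ array. Of 26 integrins and adhesion receptors 19 were higher and 1 lower, among them the adhesion receptor ADGRG1 (at least 19.6-fold higher). The fibronectin receptor subunit ITGA5 had 10.63, 10.87 and 10.76 in Ad-BRG1+IFNγ cells and 8.55, 8.67 and 8.36 in Ad-GFP+IFNγ cells. ITGB5 and the tetraspanin CD63 rose by 1.83 and 1.79. Of 25 proteases and inhibitors 14 were higher and 5 lower. The urokinase gene PLAU had 10.55, 10.81 and 10.49 in Ad-BRG1+IFNγ cells and 6.11, 6.03 and 5.52 in Ad-GFP+IFNγ cells, a difference of 4.73. The collagenase MMP1 rose by 3.99, the protease inhibitor SERPINE2 by 3.96, and A2M, a broad protease inhibitor, was at least 5.22-fold higher. Intermediate filament genes had 7 of 11 higher and 2 lower, with nestin (NES) at least 5.20-fold, keratin KRT18 2.37, lamin LMNA 1.78 and synemin (SYNM) 1.71 higher. Vimentin (VIM) had -0.21 (limma adjusted p = 0.0282), a call that was lost without Ad-BRG1+IFNγ replicate 2 or 3 or Ad-GFP+IFNγ replicate 2 or 3 (adjusted p up to 0.11). Of 14 S100 and annexin genes 8 were higher and 4 lower, S100A16 at least 16.9-fold, S100A3 at least 3.88-fold and S100A4 at least 3.67-fold higher and S100A13 by 2.94, with a range of 0.10 to 4.05 over its 4 probes. Of the 6 fibroblast markers tested, COL1A1, PDGFRB (at least 2.15-fold) and THY1 (1.12) were higher, COL3A1 was lower at -0.27, a call lost without Ad-BRG1+IFNγ replicate 2 (adjusted p = 0.07), and the others were not called. The epithelial markers KRT18 and MUC1 had 2.37 and -0.33, and the endothelial marker TEK had 0.46. The MUC1 call was lost under average normalization (adjusted p = 0.169) and without Ad-BRG1+IFNγ replicate 2 or Ad-GFP+IFNγ replicate 2 (0.0526 and 0.0577). The part of other cell types in the matrix and attachment results was not tested.

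Interferon targets were mostly higher with BRG1, with a wide spread among members. Of 50 antiviral genes 38 were higher and 6 lower, with 27 at least 2-fold higher and 1 at least 2-fold lower and a median of 1.10. On every Ad-BRG1+IFNγ array and on no Ad-GFP+IFNγ array, 10 of the 50 were detected, against 240 of all 10333 genes. Such genes may pass the detection filter only through cells with BRG1, which favors higher members in the share. After IFIT3, IFI27 and IFITM1 came the tethering factor BST2, which was at least 22.4-fold higher, and the entry inhibitors IFITM2 (4.65) and IFITM3 (4.48), related genes whose probes may share signal. IFIT2 had 10.11, 10.33 and 10.56 in Ad-BRG1+IFNγ cells and 6.75, 6.35 and 6.41 in Ad-GFP+IFNγ cells, a difference of 3.83. At the other end, IFI6 had 11.52, 11.81 and 11.83 in Ad-BRG1+IFNγ cells and 11.50, 11.57 and 11.42 in Ad-GFP+IFNγ cells by the brighter of its 2 probes. The groups overlapped, and its call (0.22, limma adjusted p = 0.0441) was lost in 11 of 21 other settings. Among these were the fits without Ad-BRG1+IFNγ replicate 2 or 3 or Ad-GFP+IFNγ replicate 1 or 3. The other IFI6 probe gave 0.86. MX1, a GTPase that traps viral particles, had 5.88, 5.70 and 5.80 in Ad-BRG1+IFNγ cells and 5.84, 5.83 and 5.57 in Ad-GFP+IFNγ cells and was not called. The ubiquitin-like modifier ISG15 rose by 0.33, and HERC5, the ligase that attaches it, was lower at -1.31. All 5 guanylate-binding genes tested were higher, GBP4 at least 19.2-fold and GBP5 at least 10.9-fold beside GBP1 and GBP2, and GBP3 by 0.74 on the log2 scale. GBP1, GBP2, GBP4 and GBP5 were detected on no Ad-GFP array, so they passed the detection filter only through cells with BRG1.

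Of 32 other interferon targets 24 were higher and 7 lower, and 7 of the 32 were detected on every Ad-BRG1+IFNγ array and on no Ad-GFP+IFNγ array. APOL3 was at least 18.7-fold higher, and IDO1, an enzyme of tryptophan breakdown, was at least 14.3-fold higher. WARS1, the tryptophan tRNA synthetase, had 14.88, 14.81 and 14.61 in Ad-BRG1+IFNγ cells and 11.96, 11.98 and 12.05 in Ad-GFP+IFNγ cells, and the PD-1 ligand CD274 had 8.31, 8.53 and 8.33 in Ad-BRG1+IFNγ cells and 5.73, 5.77 and 5.86 in Ad-GFP+IFNγ cells. Both were measured in each group and neither overlapped. The butyrophilins BTN3A1, BTN3A2 and BTN3A3 were lower, at -0.84, -1.08 and -0.76, although the other probe of BTN3A3 gave 0.40. The genes that the study compared by PCR were chosen by its authors and are no independent evidence of direction. Of 9 tested, 7 were higher, among them IFIT5 by 1.36 and IFIT1 by 1.11 (0.28 by its other probe), while HPRT1 (-0.07, limma adjusted p = 0.332) and PSMB9 were not called.

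Antigen presentation genes were more often higher than lower. Of 18 MHC class I genes 11 were higher and 1 lower, with a median of 0.44. PSMB8 had 9.03, 9.05 and 8.79 in Ad-BRG1+IFNγ cells and 6.16, 6.24 and 5.76 in Ad-GFP+IFNγ cells, a difference of 2.90 (1.78 to 2.90 over its 3 probes). PSMB9, its partner subunit in the immunoproteasome, had 10.01, 10.07 and 10.03 in Ad-BRG1+IFNγ cells and 10.24, 10.07 and 10.11 in Ad-GFP+IFNγ cells, a difference of -0.10 (limma adjusted p = 0.28), which was called at -0.33 when all its probes were averaged. HLA-B, a class I heavy chain, had 7.57, 7.14 and 7.16 in Ad-BRG1+IFNγ cells and 5.56, 5.85 and 5.70 in Ad-GFP+IFNγ cells. The peptide transporter subunit TAP1 rose by 1.08, the heavy chain HLA-F by 0.91, and TAP2 was lower at -0.46 (0.03 by its other probe). Of 9 class II genes 6 were higher and 1 lower. The transactivator CIITA was detected on every Ad-BRG1+IFNγ array and on no Ad-GFP+IFNγ array, with a fold bound of 1.13, and IFI30, a lysosomal thiol reductase, rose by 1.69. RFX5, a promoter-binding factor of class II genes, was lower at -0.63. Of 23 chemokines listed 8 passed the detection filter, and 5 of them were higher and 1 lower. These 5 were detected on every Ad-BRG1+IFNγ array and on no Ad-GFP+IFNγ array. The filter thus did not admit them through Ad-GFP+IFNγ cells. CXCL10 and CCL8 passed it only through Ad-BRG1+IFNγ cells, the group where they were high. The share of higher chemokines is therefore no evidence of direction for the family. CCL26, CXCL10 and CCL8 were at least 9.19-fold, at least 7.54-fold and at least 6.82-fold higher, each undetected in Ad-GFP+IFNγ cells.

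The signaling genes upstream of these targets were called in both directions. Of 14 receptor, JAK, STAT and IRF genes 9 were higher and 3 lower. IRF1, an early transcription factor of the response, had 13.67, 13.85 and 13.77 in Ad-BRG1+IFNγ cells and 13.21, 13.19 and 13.09 in Ad-GFP+IFNγ cells, a difference of 0.60 (SE 0.07, limma adjusted p = 1.83e-05). BATF2, IRF8 and the kinase JAK2 rose by 1.60, 1.39 and 1.15, IRF9 by 0.81, and the receptor subunit IFNGR1 by 0.62. Among 17 brakes of the pathway 4 were higher and 5 lower (23.5% and 29.4%), shares near the 28.3% and 32.8% of all genes. SOCS1, a feedback inhibitor of JAK kinases, had 8.83, 8.74 and 8.63 in Ad-BRG1+IFNγ cells and 6.01, 5.80 and 6.03 in Ad-GFP+IFNγ cells, a difference of 2.79. SOCS3 rose by 0.52, whereas SOCS2 and the STAT inhibitor PIAS3 were lower, both at -1.36. The other probe of SOCS2 gave -0.56. Of the 13 type I and III interferon genes 1 passed the detection filter and was not called.

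Most of the difference between viruses was also present without IFNγ. In untreated cells 2764 genes were higher with Ad-BRG1 (26.7%) and 3136 lower (30.3%), and across genes the differences with and without IFNγ correlated at r 0.82 and rho 0.78, over comparisons that share no arrays. Of the 574 genes 2-fold higher with IFNγ, 499 were also called higher without it, 71 were not called and 4 were called lower. Of the 295 genes 2-fold lower with IFNγ, 292 were also called lower without it and 3 were not called. The 2-fold lists shared 363 higher genes, 63.2% of the list with IFNγ and 72.6% of the 500 without it, and 145 lower genes, 49.2% of the list with IFNγ and 63.6% of the 228 without it. CRYAB had 7.35 with and 7.46 without IFNγ, HSPA6 7.34 and 7.10, and PLAU 4.73 and 4.94. ACTG2, undetected with Ad-GFP in both states, was at least 43.8-fold higher with and at least 54.2-fold higher without IFNγ. The entry inhibitor IFITM3 was 22.3-fold higher with and at least 23.5-fold higher without IFNγ, and the related IFITM1 had log2 differences of 4.98 and 0.64.

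**Figure D3:**
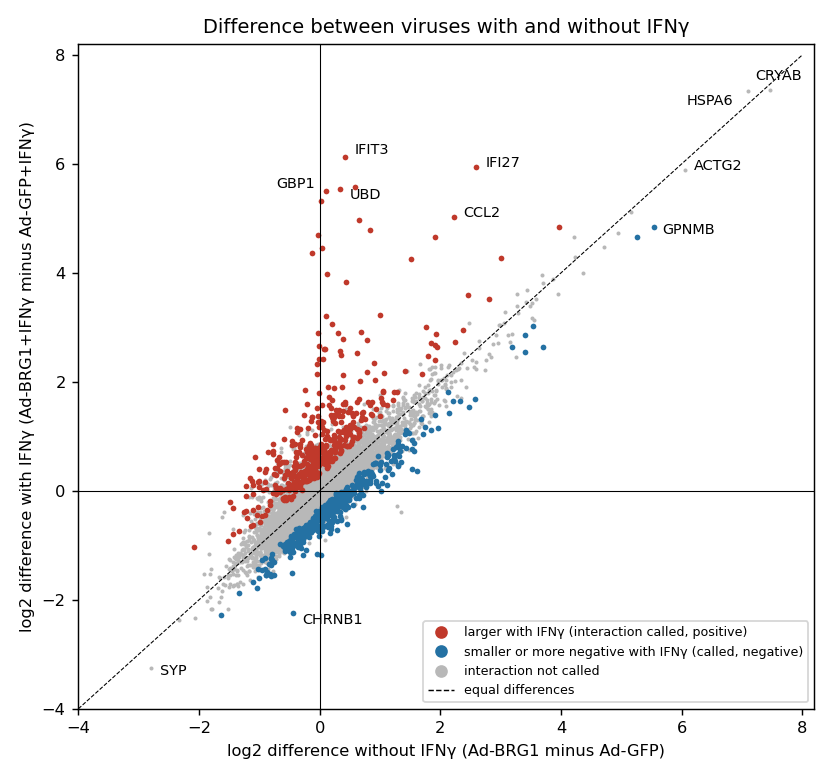
Log2 difference between Ad-BRG1 and Ad-GFP cells for each of the 10333 genes, with IFNγ (y axis) against without it (x axis); colored points are genes with a called positive or negative interaction, gray points the others, and the dashed line marks equal differences. CRYAB, HSPA6 and ACTG2 lie near the line at the upper right, while IFIT3, GBP1 and UBD lie above 5 on the y axis and between 0.11 and 0.42 on the x axis. IFIT3, GBP1 and UBD were not above background on any untreated array.

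Whether the difference itself changed with IFNγ was tested as an interaction, the difference with IFNγ minus that without it. It was positive for 446 genes (4.32%) and negative for 396 (3.83%). Of the 574 genes 2-fold higher with IFNγ, 158 had a positive and 23 a negative interaction, and 393 were not called. Of the 295 genes 2-fold lower with IFNγ, 42 had a negative and 1 a positive interaction, the zinc finger gene ZNF25 (-1.02 with and -2.09 without IFNγ). These counts moved with single arrays, since 196 of the positive and 114 of the negative calls were made in each of the 12 fits that left out 1 array. Among interactions of at least 2-fold, 90 of 136 positive and all 12 negative ones were.

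The largest positive interactions were those of ISGs that were high only in Ad-BRG1+IFNγ cells among the 4 groups. For IFIT3 the interaction was 5.70 (SE 0.11, limma adjusted p = 9.13e-12), as its difference without IFNγ was 0.42. That value compares untreated groups in which IFIT3 was not above background on any array. GBP1 had 10.59, 10.48 and 10.75 in Ad-BRG1+IFNγ cells and 5.17, 5.17 and 4.99 in Ad-GFP+IFNγ cells, against 4.89, 5.16 and 5.06 in untreated Ad-BRG1 cells and 4.99, 4.87 and 4.91 in untreated Ad-GFP cells, an interaction of 5.39. IL18BP had 12.04, 12.06 and 12.08 in Ad-BRG1+IFNγ cells and 6.81, 6.89 and 6.52 in Ad-GFP+IFNγ cells, against 5.87, 5.76 and 5.93 in untreated Ad-BRG1 cells and 5.94, 5.65 and 5.94 in untreated Ad-GFP cells, an interaction of 5.31. GBP1 was above background in 1 of the 4 groups, whereas IL18BP was measured in all 4. The interactions of UBD, PLAAT4, APOL3, IDO1 and GBP4 were 5.21, 4.99, 4.72, 4.49 and 4.41. With groups below background raised to the lowest detected signal, the 8 interactions lay between 3.82 for IDO1 and 5.84 for IFIT3. The IL18BP interaction was as low as 3.09 over the alternatives. CCL2, undetected with Ad-GFP in both states, was at least 22.7-fold higher with and at least 3.50-fold higher without IFNγ, an interaction of 2.70 with the Ad-GFP groups at the lowest detected signal. Of the 50 antiviral genes 28 had a positive and 4 a negative interaction, and of the 32 other interferon targets 20 and 3. IRF1 had an interaction of 0.03 (95% interval -0.19 to 0.26, limma adjusted p = 0.852). Of the 34 contractile genes 2 had a positive and 1 a negative interaction, and of the 37 heat shock genes 2 and 3. Over all genes tested 4.32% had a positive and 3.83% a negative interaction, and these small counts differ little from those shares.

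**Figure D4:**
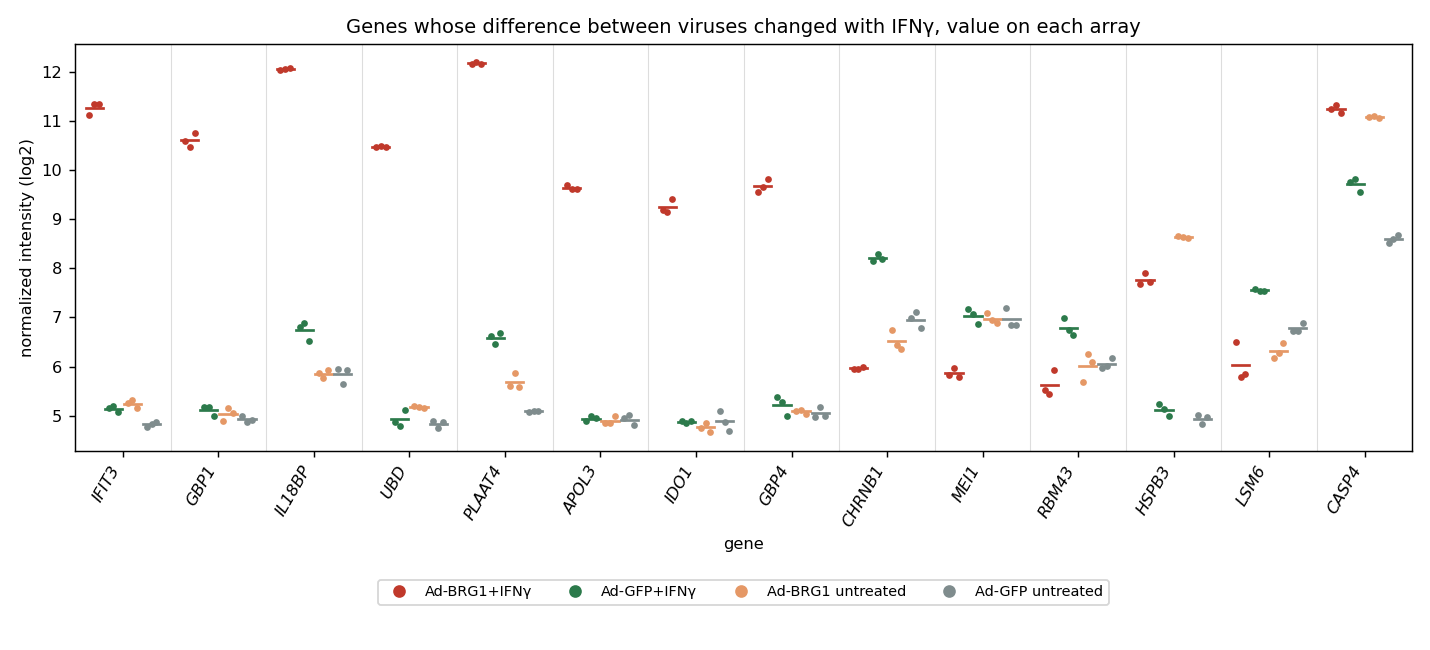
Normalized intensity (log2, y axis) on each array of the 4 groups (colors) for the 8 genes with the most positive and the 6 with the most negative interactions among genes 2-fold changed with IFNγ (x axis), with horizontal lines at the group means. The first 8 genes lie at 9.14 or above on the 3 Ad-BRG1+IFNγ arrays and at 6.89 or below on the other 9 arrays.

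The ISRE core printed above was found in 27.7% of the 83 genes that were 2-fold higher with a positive interaction and had 1 promoter window, and in 6.22% of the 193 without a called interaction. The AP-1 site had the opposite order, 6.02% and 10.9%. For the GAS element the shares were 15.7% and 6.74%, and for the heat shock core 10.8% and 5.70%. These shares are descriptions without a test.

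Negative interactions were smaller, and those named here are of genes that were 2-fold changed with IFNγ. CHRNB1 had 5.96, 5.94 and 5.98 in Ad-BRG1+IFNγ cells and 8.15, 8.28 and 8.18 in Ad-GFP+IFNγ cells, against 6.74, 6.44 and 6.37 in untreated Ad-BRG1 cells and 6.98, 7.11 and 6.78 in untreated Ad-GFP cells, an interaction of -1.80 (SE 0.15, limma adjusted p = 6.97e-06). Its level was lowest in Ad-BRG1+IFNγ cells and highest in Ad-GFP+IFNγ cells. MEI1, RBM43 and the RNA-binding protein LSM6 had interactions of -1.19, -1.12 and -1.04. HSPB3 and the inflammatory caspase CASP4 were higher with BRG1 in both states, with interactions of -1.05 and -0.94, the first of them -0.90 with the undetected Ad-GFP groups at the lowest detected signal. The class I heavy chain HLA-E had a difference of 0.15 with IFNγ (limma adjusted p = 0.124) and 1.03 without it, an interaction of -0.88, while the immunoproteasome subunit PSMB10 had 0.53 and -0.58, an interaction of 1.12. The 4 genes that were 2-fold higher with IFNγ and lower without it were BATF2 (1.60 and -0.22, the second with untreated Ad-BRG1 cells not above background), ANO3 (1.48 and -0.58), JAK2 (1.15 and -0.38) and LAP3 (1.14 and -0.32), named after their values were seen. JAK2 was detected on 1 of the 3 untreated Ad-BRG1 arrays, so its second value is near background.

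Receptors and cytokines were more often higher than lower, in lists that share CD40 and TNFSF10 with the other interferon targets. Of 39 cytokine and growth factor receptors 26 were higher and 3 lower, the receptor tyrosine kinase AXL at least 7.21-fold and IL20RB at least 2.18-fold higher. Among the 39, 7 were detected on every Ad-BRG1+IFNγ array and on no Ad-GFP+IFNγ array. The TNF receptor TNFRSF1A had 10.67, 10.83 and 10.73 in Ad-BRG1+IFNγ cells and 8.50, 8.66 and 8.64 in Ad-GFP+IFNγ cells, and IL15RA, which was detected on 1 of the 3 Ad-GFP+IFNγ arrays, rose by 1.90 by 1 probe and by 0.36 by the other. Of 23 interleukins, TNF ligands and growth factors 13 were higher and 5 lower, with the stress cytokine GDF15 and the EGF receptor ligand HBEGF 2.87 and 1.68 higher on the log2 scale and IL32 at least 4.21-fold higher. The death ligand TNFSF10 was uneven among replicates, with 5.96, 7.18 and 6.90 in Ad-BRG1+IFNγ cells and 4.72, 4.74 and 4.91 in Ad-GFP+IFNγ cells, and was at least 2.42-fold higher. Of 14 NF-κB genes 6 were higher and 4 lower (42.9% and 28.6%), against 28.3% and 32.8% of all genes. The inhibitors CYLD, TNFAIP3 and NFKBIA were at 1.12, 0.87 and 0.57, the cofactor BCL3 at 1.06 and the subunits RELB and NFKB1 at -0.56 and -0.55. Of 20 AP-1 and immediate early genes 9 were higher and 7 lower (45% and 35%). In both lists the share that was lower was near that of all genes. JUN, a subunit of AP-1, had 10.85, 10.91 and 10.65 in Ad-BRG1+IFNγ cells and 7.25, 7.34 and 6.96 in Ad-GFP+IFNγ cells, and the stress factor ATF3 and the phosphatase DUSP5 rose by 3.03 and 2.35, while JUNB, EGR1 and DUSP6 were lower, at -0.88, -0.76 and -1.47.

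Genes of growth and replication were mostly lower with BRG1. MYC, a driver of cell growth, had 9.49, 9.53 and 9.43 in Ad-BRG1+IFNγ cells and 11.03, 10.85 and 11.07 in Ad-GFP+IFNγ cells, a difference of -1.50. Of 42 MYC, polyamine and ribosome biogenesis genes 3 were higher and 30 lower, with a median of -0.48. Beside DPH2 and SRM, the nucleolar proteins NOP16 and DKC1 were lower, at -1.24 and -1.01, while SAT1, which breaks polyamines down, rose by 1.52 and MXD1, an antagonist of MYC, by 1.45. Of 48 S phase genes 6 were higher and 32 lower, with a median of -0.34. The transcription factor E2F2 had 10.03, 10.12 and 10.08 in Ad-BRG1+IFNγ cells and 11.70, 11.55 and 11.61 in Ad-GFP+IFNγ cells. The repair glycosylase UNG, the primase PRIM1 and the cyclin CCNE1 were lower at -1.14 (-0.55 by the other probe of UNG), -1.03 and -0.92. The cell cycle inhibitor CDKN1A had 10.12, 10.38 and 10.24 in Ad-BRG1+IFNγ cells and 7.11, 7.28 and 7.27 in Ad-GFP+IFNγ cells, a difference of 3.03, and GADD45A rose by 3.09. Among 22 cell cycle inhibitors and p53 targets 13 were higher and 2 lower. PMAIP1, a death gene of the BCL2 family, had 1.79 with and -0.01 without IFNγ, an interaction of 1.80. Its other probe gave 0.88 with IFNγ.

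Genes of G2 and mitosis had a median of 0.13, against -0.34 for the S phase genes. With IFNγ 10 of 44 were higher and 7 lower, and without it 4 were higher and 13 lower, a difference that was not tested for the list. HMMR, a hyaluronan receptor of the spindle, had 9.63, 10.27 and 11.07 in Ad-BRG1+IFNγ cells and 9.22, 8.93 and 9.30 in Ad-GFP+IFNγ cells. The kinetochore protein CENPF had 7.50, 7.66 and 8.72 in Ad-BRG1+IFNγ cells and 7.13, 7.15 and 7.27 in Ad-GFP+IFNγ cells. Ad-BRG1+IFNγ replicate 3 was the highest array for both, and without it the CENPF difference was 0.404 (limma adjusted p = 0.017), against 0.78 with all arrays. Replicate 3 was the highest array of each of the 4 groups for HMMR, and of each but untreated Ad-GFP cells for CENPF. CKAP2 rose by 0.81 and the checkpoint protein MAD2L1 was lower at -0.70.

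Metabolic genes were called in both directions. Of 38 subunits of oxidative phosphorylation 2 were higher and 20 lower, the ATP synthase subunit ATP5F1D at -0.81 and the complex I subunits NDUFB10 and NDUFV2 at -0.61 and -0.55. Of 37 glycolysis and hypoxia genes 22 were higher and 3 lower, the carbonic anhydrase CA12 at 2.04, the aldolase ALDOC at 1.95, the vasodilator peptide ADM at 1.65 and the collagen hydroxylase P4HA2 at 1.39 (0.38 to 1.43 over its 3 probes). Amino acid stress genes and tRNA synthetases had 10 of 38 higher and 19 lower (26.3% and 50%), against 28.3% and 32.8% of all genes. The stress factor ATF4, the asparagine synthetase ASNS and CHAC1, which degrades glutathione, were lower at -0.75, -0.80 and -1.17, while the lipoprotein receptor VLDLR was at least 7.15-fold higher and the transporter subunit SLC3A2 rose by 1.43. Of 33 lysosomal genes 24 were higher and 4 lower, among the higher ones GPNMB, the autophagy receptor SQSTM1 (1.55) and the cholesterol carrier NPC2, which had 15.33, 15.58 and 15.54 in Ad-BRG1+IFNγ cells and 14.27, 14.18 and 14.21 in Ad-GFP+IFNγ cells. Cholesterol and fatty acid synthesis had 13 of 30 higher and 5 lower, with the elongase ELOVL6, the acetyl-CoA synthetase ACSS2 and LSS at 1.28, 1.08 and 0.84 (LSS 0.06 to 0.84 over its 3 probes) and the kinase PMVK at -0.84.

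**Figure D5:**
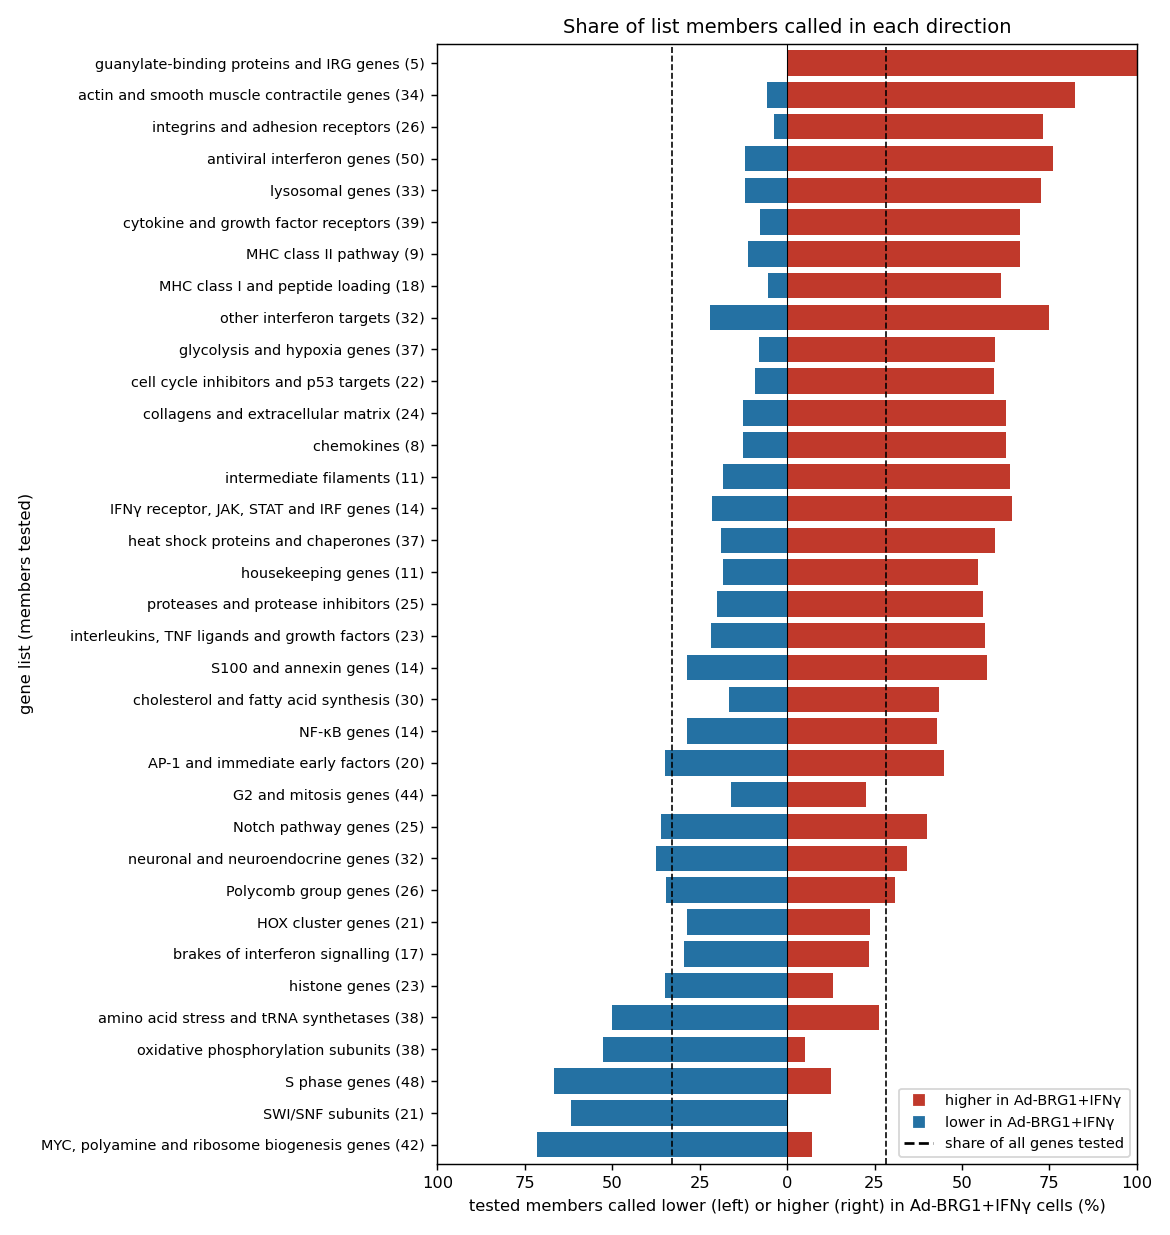
Percent of the tested members of each gene list (y axis, number tested in parentheses) that were called higher or lower in Ad-BRG1+IFNγ cells than in Ad-GFP+IFNγ cells (x axis), with dashed lines at the shares of all genes tested, 28.3% higher and 32.8% lower. Guanylate-binding and contractile genes have 100% and 82.4% of members higher, while ribosome biogenesis, S phase and SWI/SNF genes have 71.4%, 66.7% and 61.9% lower. Of the 5 guanylate-binding genes, 4 passed the detection filter only through cells with BRG1.

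Chromatin genes were lower or mixed. Of 21 SWI/SNF subunits 0 were higher and 13 lower by limma, and the same counts, 0 and 13, were found at an unadjusted p under 0.05. BICRAL, at -1.53, was 2-fold lower, and the subunits SMARCB1, SMARCD3 and ARID1A were lower at -0.68, -0.67 and -0.66. In untreated cells 8 of them were lower. Polycomb group genes had 8 of 26 higher and 9 lower, shares near those of all genes, with PHC3 at 1.19, the EZH2 cofactor MTF2 at 0.67, LCOR at 0.69 and the ubiquitin ligase RING1 at -0.86. The PRC2 subunit SUZ12 had 11.73, 12.07 and 12.43 in Ad-BRG1+IFNγ cells and 11.93, 11.65 and 12.04 in Ad-GFP+IFNγ cells, groups that overlapped (0.20, limma adjusted p = 0.366). EZH2, the methyltransferase of PRC2, had 9.57, 9.69 and 9.56 in Ad-BRG1+IFNγ cells and 9.42, 9.40 and 9.47 in Ad-GFP+IFNγ cells, a difference of 0.17 (limma adjusted p = 0.0329), a call lost without Ad-BRG1+IFNγ replicate 2 or Ad-GFP+IFNγ replicate 1 or 2 and turned to -0.081 by averaging all its probes. Histone genes had 3 of 23 higher and 8 lower (13% and 34.8%), against 28.3% and 32.8% of all genes. The share that was lower was thus near that of all genes. The variant MACROH2A1 was at -0.95 and the linker histone H1-10 at -0.91. HOX genes had 5 of 21 higher and 6 lower (23.8% and 28.6%), again near the shares of all genes, with HOXD8 at -0.77 and HOXB2 at 0.58.

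Neuronal and Notch genes held large differences of both signs. Of 32 neuronal and neuroendocrine genes 11 were higher and 12 lower. These shares, 34.4% and 37.5%, are near those of all genes, 28.3% and 32.8%. The tubulin gene TUBB2B had 11.35, 11.30 and 11.22 in Ad-BRG1+IFNγ cells and 8.38, 8.56 and 8.33 in Ad-GFP+IFNγ cells, beside the falls of SYP, RPRML and MAPT. The secretory granule protein CHGB was at -1.40. Of 25 Notch genes 10 were higher and 9 lower (40% and 36%), the lower share again near that of all genes. The ligand JAG1 and the receptor NOTCH1 were at 1.63 and 1.35 and the target HEY1 at -1.45, beside the falls of DLL3 and HES7. Housekeeping genes were not level either, with 6 of 11 higher and 2 lower, each by less than 2-fold. B2M had 0.51, TBP -0.39, TFRC -0.48 and YWHAZ 0.45, the last of which was -0.034 when all its probes were averaged.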

How the data were processed

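The data are 12 Illumina human whole-genome BeadChip arrays of total RNA from SW-13 cells, 3 for each of 4 groups. The authors deposited raw probe intensity on a linear scale, summarised per probe with BeadStudio (version not given in the sources used here), and beside it a detection p-value, the rank of the probe among the negative controls of its array. They also deposited average-normalized intensity, which equals the raw value times 1 constant per array and was used as an alternative only. Groups were taken from the sample labels. The methods call the replicates biological, and p-values measure the spread between these samples.

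Raw intensity was background-corrected and quantile-normalized with neqc of limma 3.58.1 (R 4.3.3) at an offset of 16, with the negative controls inferred from the detection p. A probe was kept if 1 group or more had it below a detection p of 0.05 on each of its 3 arrays, probes were named through RefSeq symbols, and the probe with the highest mean intensity stood for a gene. A linear model with 1 mean per group over the 12 arrays and moderated variance gave the difference with IFNγ, that without it and their interaction, each with Benjamini-Hochberg adjustment over 10333 genes. A call is an adjusted p under 0.05, and 2-fold means a log2 difference of at least 1 in size. Where no array of a group was above background, the fold was computed against the lowest signal among detected probes of each array (log2 5.35 to 5.44) and is a lower bound. The number of arrays limits the precision. The fit was tested on simulated data. Figures were drawn with matplotlib 3.10.9.

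The genes named are the 15 most positive and 12 most negative 2-fold differences, the 8 most positive and 6 most negative interactions among genes 2-fold changed with IFNγ, up to 4 called members of each list with the largest differences, and a few genes of interest to the study, among them SMARCA4, SUZ12, EZH2, IRF1, CIITA and the genes it compared by PCR. Other genes were named after their values were seen. The members and the gene lists were chosen with earlier results of these data known. Alternatives changed the normalization, the offset, the detection filter, the summary over probes, the arrays in the fit, the variance model and the replicate block, and left out each array in turn.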

Additional observations from a re-analysis of the deposited data

Results flagged for a closer look

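The effect of BRG1 differed with and without IFNγ by the interaction test of limma for 446 genes in the positive and 396 in the negative direction. The 8 most positive differences among genes that were 2-fold changed with IFNγ were IFIT3 (5.70 on the log2 scale), GBP1 (5.39), IL18BP (5.31), UBD (5.21), PLAAT4 (4.99), APOL3 (4.72), IDO1 (4.49) and GBP4 (4.41). The 6 most negative were CHRNB1 (-1.80), MEI1 (-1.19), RBM43 (-1.12), HSPB3 (-1.05), LSM6 (-1.04) and CASP4 (-0.94). Each of these 14 differences was called in 20 of 20 alternatives, and over these alternatives the smallest sizes were 2.65 for IDO1 among the 8 and -0.362 for CASP4 among the 6.

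Probes that could not be assigned to a single gene symbol lay outside the comparisons. Of 2859 such probes that passed the detection filter, 84 were 2-fold higher and 80 were 2-fold lower in Ad-BRG1+IFNγ cells than in Ad-GFP+IFNγ cells.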

How the results depend on the processing

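Of the 167 named genes, 158 kept their direction and their side of the threshold in each of the 21 alternatives that tested them (163 were tested at a detection p under 0.01, which left out CIITA, IL20RB, SOCS3 and TNFSF10), the exceptions being COL3A1, EZH2, HPRT1, IFI6, MUC1, PSMB9, SMARCA4, VIM and YWHAZ. The cause of the changes that follow was not tested. Without background correction fewer genes reached 2-fold, 296 higher and 84 lower under average normalization and 289 and 79 under quantile normalization, and with an offset of 50 the lower count was 179, yet all 869 genes were still called in these 3 settings. The share of calls that were higher was 46.4% and became 54.9% under average normalization. Positive interactions numbered 811 under average and 745 under quantile normalization, where negative ones numbered 715, and a variance trend with robust moderation gave 653 negative ones. SMARCA4 turned to 0.01 under average normalization, to 0.087 without Ad-BRG1+IFNγ replicate 1 and to 0.007 without Ad-GFP+IFNγ replicate 1, within a range of -0.09 to 0.087 over the fits that left out 1 array, and averaging all probes of a gene turned YWHAZ to -0.034 and EZH2 to -0.081. Leaving out 1 array at a time gave 2676 to 2976 genes called higher, 3092 to 3420 called lower, 573 to 612 at 2-fold higher and 285 to 331 at 2-fold lower. Positive interactions then numbered 214 (without untreated Ad-GFP replicate 3) to 834 (without untreated Ad-BRG1 replicate 3) and negative ones 137 (without untreated Ad-GFP replicate 3) to 772 (without Ad-BRG1+IFNγ replicate 1). Positive and negative counts also moved by over 1.5 times without Ad-BRG1+IFNγ replicate 2 (265 and 188) or 3 (278 and 182), Ad-GFP+IFNγ replicate 2 (238 and 151) or 3 (272 and 198), and untreated Ad-BRG1 replicate 1 (252 and 188) or 2 (262 and 184), and without untreated Ad-GFP replicate 2 (297 and 249).

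The labels number the replicates but do not say whether same-numbered arrays were handled together. Deviations of same-numbered arrays with IFNγ correlated at -0.15, 0.02 and 0.14, and 1 of 3 correlated best with its own number. The untreated arrays were not part of that check. With a replicate block 3020 genes were called higher, 3429 lower, 574 at 2-fold higher and 295 at 2-fold lower. The block gave 727 positive and 611 negative interactions, against 446 and 396 without it. What the replicate numbers share was not tested further. BeadChip as a block was not run, because the headers give no chip. Where a group was not above background, signal limits the fold to a bound.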
